A study of Homo sapiens with 11 samples.

Results

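The insulin-like growth factor (IGF) axis was followed through 9 genes in 11 RNA-seq libraries made from 2 human breast cancer lines that carry the estrogen receptor. The genes encode the receptors IGF1R and INSR, the receptor substrates IRS1 and IRS2, and the IGF-binding proteins IGFBP2, IGFBP3, IGFBP4, IGFBP5 and IGFBP6. They were taken by symbol from the deposited count files, where all 9 had a row among 59087 genes. The study lowered the kinase NLK in BT483, a ductal carcinoma line, and in T47D-TamR, a derivative of T47D passaged continuously in tamoxifen. Each line had 4 libraries in an siRNA arm: control siRNA, NLK siRNA type 1, NLK siRNA type 2, and control siRNA with tamoxifen. T47D-TamR had 3 more in a drug arm: DMSO, VX-702, and DMSO with tamoxifen. Cells of both arms were first kept without estrogen for 48 h. The siRNAs were used at 10 nM for 72 h, and tamoxifen and VX-702 at 0.5 µM. VX-702, known as an inhibitor of p38 kinases, is labelled as a drug against NLK. Every group was 1 library, so p-values rest on the spread left over in fits across groups, and nothing says whether the libraries came from separate cultures. How long the drug arm was treated, and whether the T47D-TamR controls were kept in their maintenance tamoxifen, is not given in the sources used here.

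IGF1 and IGF2 are secreted ligands that bind IGF1R, a receptor tyrosine kinase, while insulin acts through INSR, its close relative. Both receptors phosphorylate IRS adaptor proteins, which recruit PI3K and lead to AKT and mTOR. The IGFBPs bind the ligands outside the cell and control how much reaches the receptors, and pappalysins cleave some of them. In breast epithelium the axis is known to work together with the estrogen receptor, and IGF1R, IRS1 and IGFBP4 are among the genes known to respond to estrogen there. Tamoxifen competes with estrogen for that receptor.

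The libraries held 14637083 to 26915863 counts each, and a floor of 3 counts stood for 0.111 to 0.205 CPM (counts divided by the library's TMM-scaled size). NLK was at 28.4% and 18.4% of control siRNA in BT483 (types 1 and 2) and at 34.4% and 40.1% in T47D-TamR. The summed level of 8 luminal epithelial markers was 13646 to 15782 CPM in BT483, 5785 to 6818 CPM in the T47D-TamR siRNA arm and 7372 to 8288 CPM in the drug arm, with none at 0. ESR1, the estrogen receptor gene among these 8, was at 120 to 152 CPM in BT483 and 20.6 to 31.8 CPM in T47D-TamR. Leukocyte markers summed to at most 0.242 CPM in any library. All counts below are called by edgeR's quasi-likelihood test at an adjusted p (Benjamini-Hochberg over all genes tested) under 0.05.

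The receptors, both IRS genes and 4 of the 5 binding protein genes were higher in BT483 than in T47D-TamR. Over the 4 conditions that both lines shared, all 8 genes tested were called higher in BT483, where 70.7% of 21990 genes were called and 35.6% were called higher. The median log2 fold change of the 8 was 3.14, beside 0.01 over all genes tested. IGFBP6 had too few counts to be tested. The lines differ in origin and in the passage in tamoxifen, which cannot be told apart here. No value of these 8 genes in BT483 overlapped the T47D-TamR libraries of either arm, most narrowly for IGFBP2 (256 CPM at the lowest against 254 CPM). How many of all genes lay apart in this way was not counted. The 6 basal or myoepithelial markers summed to 7.49 to 17.4 CPM in BT483 and 57.2 to 145 CPM in T47D-TamR. ACTA2 and KRT17 made up most of the T47D-TamR sums. KRT14, TP63 and MYLK also lay higher in T47D-TamR, at 11.1 CPM or less. KRT5 did not differ, at 0.08 to 0.45 CPM in BT483 and 0.08 to 0.38 CPM in T47D-TamR. The 10 fibroblast markers summed to 57.0 to 90.2 CPM in BT483 and 70.1 to 121 CPM in T47D-TamR. The part of these markers in the line differences was not tested. In bulk RNA, fewer cells with a transcript and less of it in each cell cannot be told apart.

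IGF1R, the main IGF receptor (chromosome 15, 98648539 to 98964530, plus strand; GRCh38 and GENCODE 29 here and below), stood at 332 CPM with control siRNA in BT483, 331 CPM with NLK siRNA type 1, 338 CPM with type 2 and 215 CPM with tamoxifen. In T47D-TamR it lay between 65.6 and 91.7 CPM, with a median of 72.5 CPM over 7 libraries. The BT483 library with tamoxifen was the lowest of its line and still above every T47D-TamR library. The log2 fold change was 1.98 (SE 0.15, adjusted p = 2.8e-07). INSR, the insulin receptor (chromosome 19, 7112255 to 7294034, minus strand), was at 35.9, 39.9, 55.7 and 48.4 CPM in the same 4 BT483 libraries and at 7.91 to 13.7 CPM in T47D-TamR, a log2 fold change of 2.27 (SE 0.15, adjusted p = 1.13e-07). The ratio of IGF1R to INSR in TPM, a level that allows for gene length, was 3.46 to 7.19 in BT483 and 4.11 to 7.94 in T47D-TamR. These ranges overlapped, and IGF1R was above INSR in every library of both lines.

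IRS1, the adaptor that couples IGF1R to PI3K (chromosome 2, 226731317 to 226799759, minus strand), was at 118 CPM with control siRNA in BT483, 99.6 CPM with type 1, 133 CPM with type 2 and 67.0 CPM with tamoxifen. In T47D-TamR it was at 5.01 to 10.3 CPM in the siRNA arm and at 3.60 to 4.57 CPM in the drug arm. Its log2 fold change between the lines was 3.85 (SE 0.17, adjusted p = 7.53e-09).

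IRS2, the second adaptor (chromosome 13, 109752698 to 109786568, minus strand), was near the floor in T47D-TamR. BT483 had 256, 166, 436 and 284 reads of it, or 14.4, 10.6, 16.1 and 10.7 CPM, with control siRNA, type 1, type 2 and tamoxifen. The T47D-TamR library with control siRNA had 0 reads, type 1 had 3, type 2 had 8 and the tamoxifen library had 3, and each of the 3 drug arm libraries had 0. The summed 1142 reads of BT483 against 14 in the T47D-TamR siRNA arm made the level 92.9-fold higher (exact 95% interval 55.2 to 171, which covers counting error only). Against 3 counts over the whole drug arm it was at least 327-fold higher. The fitted log2 fold change was 6.48 (SE 0.40, adjusted p = 1.16e-07). IRS2 had the largest line difference of the 9 genes and its promoter is shown for that reason, from RefSeq on GRCh38.p14 at chr13:109786534-109786833, minus strand, written 5′ to 3′ from 250 bases before the start of the transcript to 50 after it.
IRS2 promoter: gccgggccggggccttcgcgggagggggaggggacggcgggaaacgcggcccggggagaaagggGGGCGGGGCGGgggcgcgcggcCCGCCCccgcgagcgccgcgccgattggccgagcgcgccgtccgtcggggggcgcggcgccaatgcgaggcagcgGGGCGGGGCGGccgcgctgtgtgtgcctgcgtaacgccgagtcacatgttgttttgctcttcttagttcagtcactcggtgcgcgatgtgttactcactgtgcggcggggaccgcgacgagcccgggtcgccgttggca
The capitals mark 5 GC boxes (GGGCGG on either strand), some of which share a base. A GC box stood in 45.0% of 35116 RefSeq promoters of the same length. The window has 50 CpG sites, an observed over expected ratio of 1.21, beside a median of 0.58 over those promoters.

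Among the binding proteins, IGFBP5 was the most abundant in BT483, and IGFBP4 had the largest difference between the lines. IGFBP5, which binds IGFs and extracellular matrix (chromosome 2, 216672105 to 216695525, minus strand), was at 4713 CPM with control siRNA in BT483, 6563 CPM with type 1, 4097 CPM with type 2 and 4703 CPM with tamoxifen. In T47D-TamR it was at 125 to 229 CPM in the siRNA arm and at 392 to 452 CPM in the drug arm. The log2 fold change was 4.83 (SE 0.25, adjusted p = 7.73e-07). IGFBP5 alone took 0.431 to 0.701% of all counts of a BT483 library and 0.012 to 0.044% in T47D-TamR.

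IGFBP4, an inhibitor of IGF action that pappalysin cleaves (chromosome 17, 40443461 to 40457731, plus strand), was at 427, 318, 278 and 92.4 CPM in BT483 with control siRNA, type 1, type 2 and tamoxifen. T47D-TamR had 3.02 to 4.87 CPM in the siRNA arm and 5.15 to 8.0 CPM in the drug arm. Even the lowest BT483 library lay above every T47D-TamR library, and the log2 fold change was 5.88 (SE 0.54, adjusted p = 0.000537). IGFBP3, the main carrier of IGFs in serum (chromosome 7, 45912245 to 45921874, minus strand), was at 14.9, 16.4, 22.4 and 28.0 CPM in BT483 and at 2.88 to 6.66 CPM in T47D-TamR, a log2 fold change of 2.42 (SE 0.23, adjusted p = 1.97e-06).

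IGFBP2, which prefers IGF2 (chromosome 2, 216632828 to 216664436, plus strand), differed least. It was at 347, 298, 309 and 256 CPM in BT483 and at 140 to 254 CPM in T47D-TamR, a log2 fold change of 0.87 (SE 0.14, adjusted p = 0.000159). Its gene is the neighbour of IGFBP5, 7668 bases away on the other strand, and the line difference of the neighbour was far larger, at 4.83 against 0.87. IGFBP6 (chromosome 12, 53097436 to 53102345, plus strand) had 1, 2, 6 and 0 reads in BT483 and 6 to 21 reads in T47D-TamR, so it ran the other way at levels of at most 0.880 CPM. Without the filter on low counts it was tested and called lower in BT483 (log2 fold change -2.06, SE 0.75, edgeR adjusted p = 0.016). With 1 library left out it passed the filter in 7 fits and was called lower in 2 of them, without the type 2 library of either line (adjusted p = 0.0181 and 0.02), and not in the other 5 (0.0603 to 0.0963).

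**Figure D1:**
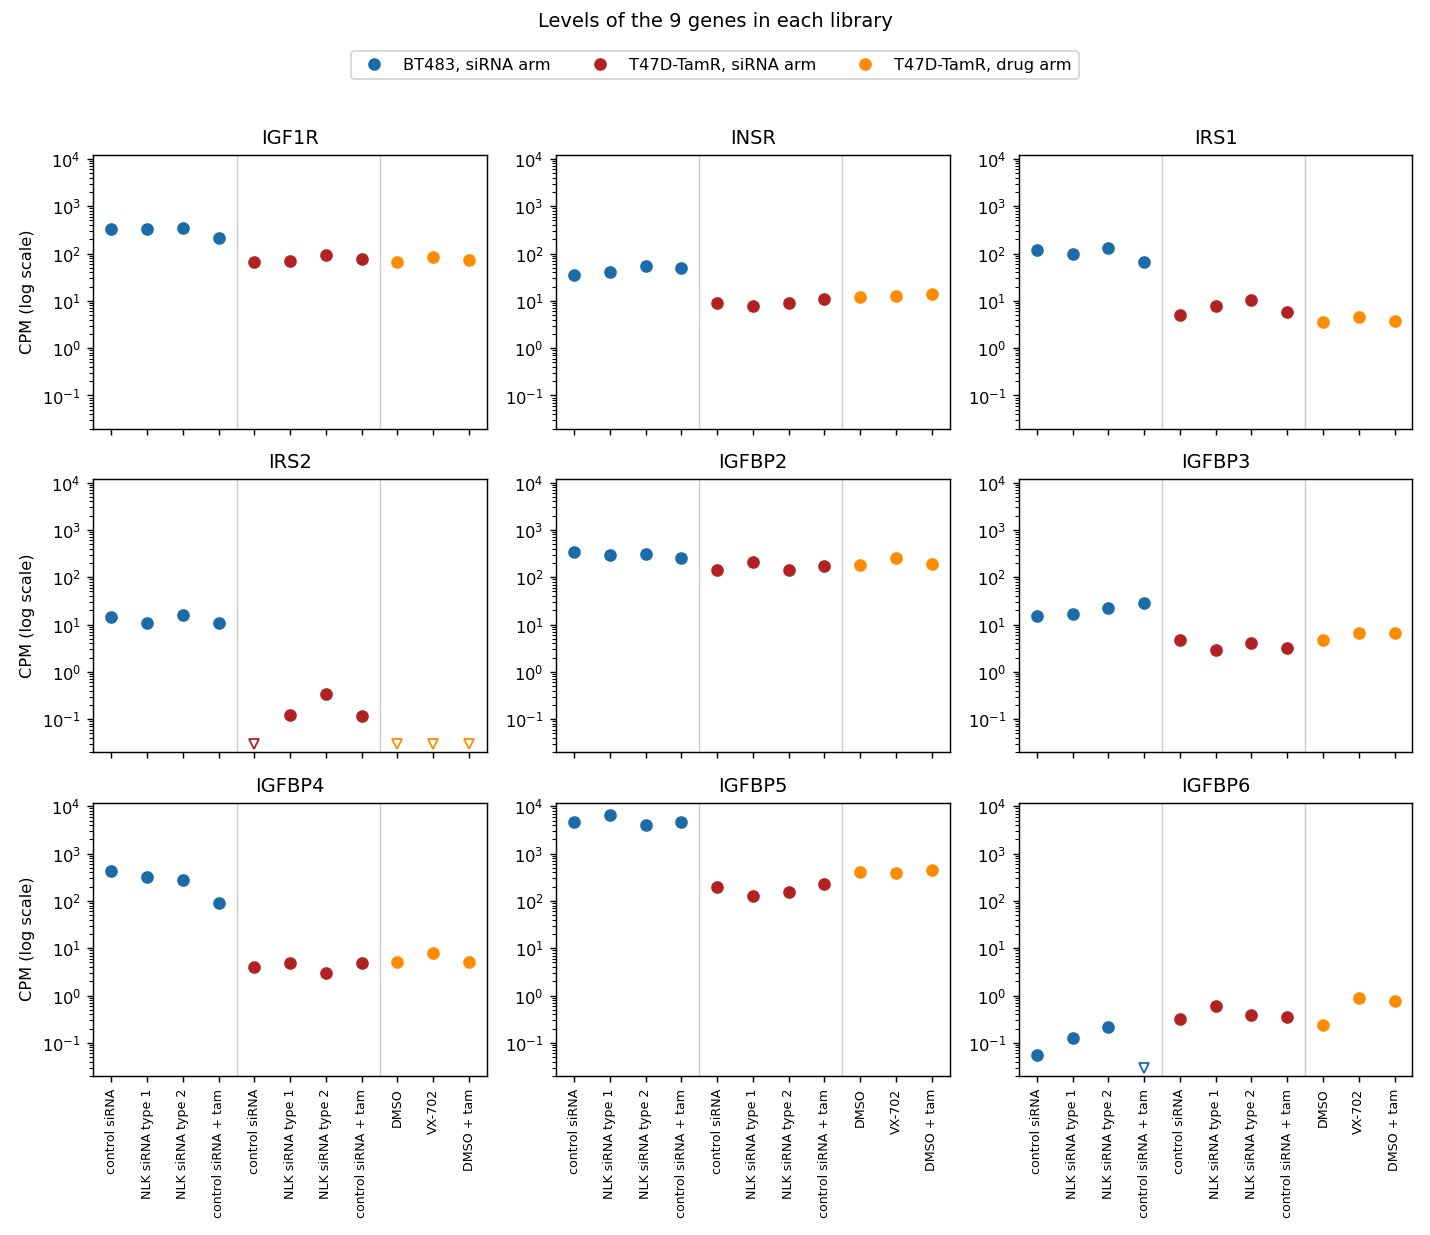
TMM-scaled CPM of each of the 9 genes (log axis) in every library, coloured by line and arm. Each point is 1 library, and open triangles at the foot mark libraries with 0 reads. All 4 BT483 points lie above all T47D-TamR points in every panel but IGFBP6. The share of all genes that lie apart in this way was not counted.

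**Figure D2:**
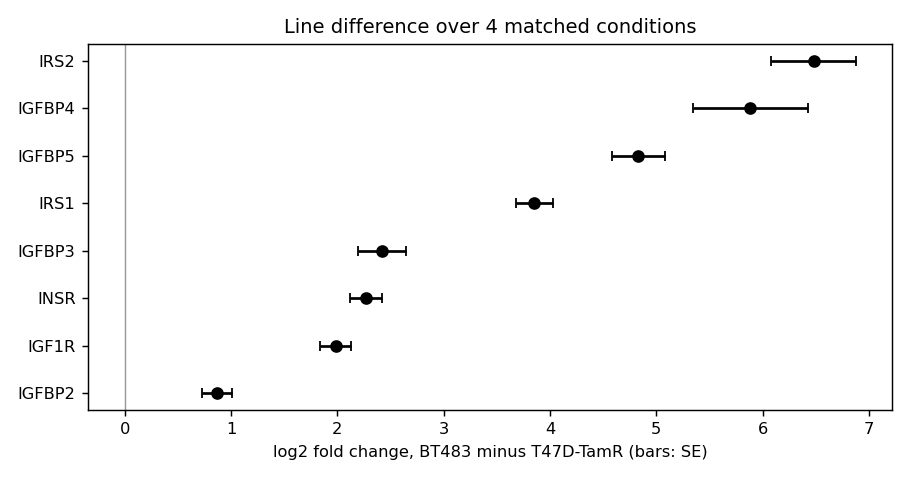
Log2 fold change of BT483 over T47D-TamR for the 8 tested genes, from 4 conditions in each line, with bars of 1 SE. The values run from 0.87 for IGFBP2 to 6.48 for IRS2.

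Compared per length, IGFBP5, IGFBP4 and IGFBP2 headed the 9 genes in BT483, and IGFBP2 and IGFBP5 headed them in T47D-TamR. In BT483 the median TPM was 2163 for IGFBP5, 413 for IGFBP4, 195 for IGFBP2, 72.5 for IGF1R, 33.8 for IRS1, 12.9 for IGFBP3, 12.2 for INSR, 4.73 for IRS2 and 0.21 for IGFBP6. The neighbours IGFBP4 and IGFBP2 overlapped over the 4 libraries, as did IGFBP3 and INSR. In T47D-TamR the median TPM was 105 for IGFBP2, 97.0 for IGFBP5, 13.8 for IGF1R, 6.03 for IGFBP4, 2.73 for INSR, 2.70 for IGFBP3, 1.32 for IRS1, 0.83 for IGFBP6 and 0 for IRS2. There IGFBP2 and IGFBP5 overlapped, and so did each neighbouring pair from INSR to IGFBP6. IGFBP2 therefore led in T47D-TamR by its median only, and lay above IGFBP5 in 3 of the 7 libraries. In the drug arm IGFBP5 was the higher one, at 153 to 186 TPM against 105 to 135 TPM for IGFBP2.

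The summed TPM of the 5 binding proteins was 2392 to 3831 in BT483 and 164 to 303 in T47D-TamR. IGFBP5 made up 73.0 to 87.7% of that sum in BT483. In T47D-TamR its share was 29.1 to 48.7% in the siRNA arm and 50.6 to 61.2% in the drug arm. IGFBP2 took 35.0 to 66.0% in T47D-TamR and 5.12 to 7.86% in BT483, without overlap. IGFBP4 had 19.4% of the sum in the BT483 control siRNA library, 11.8% and 15.2% in the type 1 and type 2 libraries, and 5.05% with tamoxifen, the lowest of the 4.

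**Figure D3:**
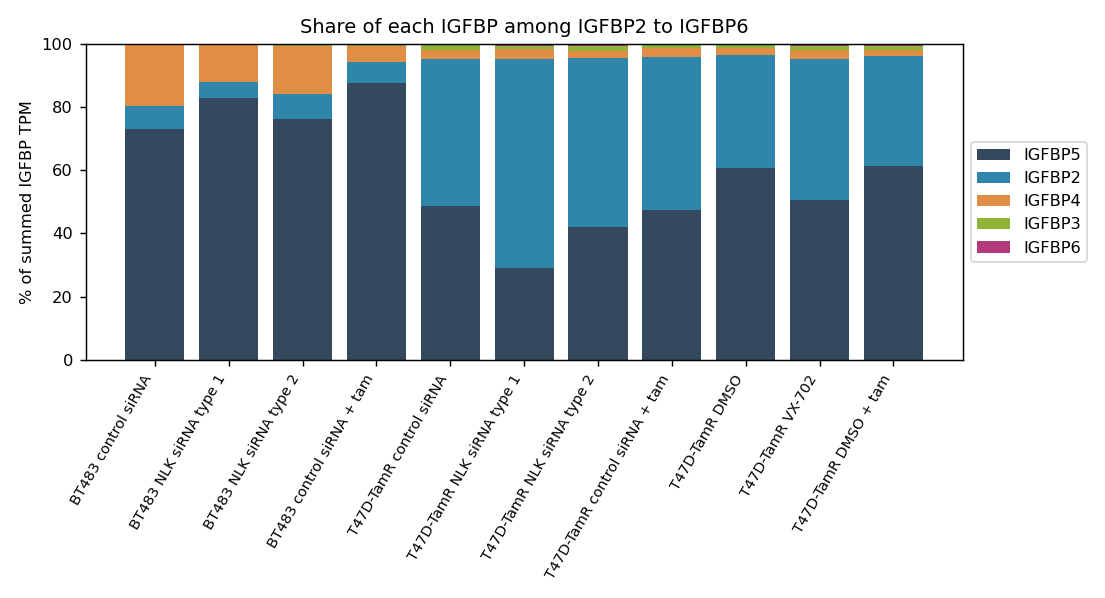
Percent of the summed TPM of IGFBP2 to IGFBP6 taken by each gene, 1 bar for each library. IGFBP5 fills 73.0 to 87.7% of the BT483 bars, and IGFBP2 35.0 to 66.0% of the T47D-TamR bars.

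Around the 9 genes, a list of 54 other genes of the axis had 45 tested between the lines, of which 33 (73.3%) were called, 20 higher and 13 lower in BT483, with a median log2 fold change of 0.20. This share is near the 70.7% over all genes (35.6% higher), whose median was 0.01. The ligands were at or near 0: INS had 0 reads in all 11 libraries, IGF1 0 to 2 reads in BT483 and 3 to 10 in T47D-TamR, and IGF2 0 to 5 reads in any library. Of the 4 tested genes among the IGFBP proteases and their inhibitors, 3 were higher. STC1 and STC2, stanniocalcins that inhibit pappalysins, were higher in BT483 by log2 fold changes of 6.83 (SE 0.22) and 3.62 (SE 0.45), and PAPPA, the pappalysin that cleaves IGFBP4, was lower by -1.93 (SE 0.25). SOCS2, a feedback inhibitor of cytokine and growth hormone signalling, was higher by 7.21 (SE 0.43), and IGFBPL1, an IGFBP-like protein, by 4.98 (SE 0.37). IGF2BP3 and IGF2BP2, which bind IGF2 and other mRNAs, were lower by -4.53 (SE 0.63) and -3.47 (SE 0.24). The adjusted p of these 7 genes was at most 0.00159, and except for PAPPA they are the 6 with the largest differences among those called. Of 9 brakes on the pathway 3 were higher and 3 lower, of 9 PI3K and AKT genes 2 were higher and 2 lower, of 8 TSC and mTOR genes 4 were higher and 1 lower, and of 7 tested receptor adaptors 4 were higher and 2 lower.

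With tamoxifen, IGFBP4 fell in BT483. Control siRNA had 427 CPM and its tamoxifen counterpart 92.4 CPM, which is 21.6% of control (exact 95% interval 20.7 to 22.6, counting error only). Both NLK siRNA libraries of BT483, without tamoxifen, lay above it at 318 and 278 CPM. The log2 fold change was -2.23 (SE 0.27, adjusted p = 0.000509). It was the only one of 9 genes called by edgeR, where 1.49% of 24023 genes were called and 1.4% were called lower. DESeq2 called 1 of the 9, where it called 481 of 24023 genes. Limma on the deposited log2 TPM values called 0 of the 9 (IGFBP4 adjusted p = 0.055), where it called 20 genes. BT483 has 1 library with tamoxifen, whose spread is taken from the other groups.

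In T47D-TamR, IGFBP4 with tamoxifen was at 119% (91.0 to 156) of control siRNA and at 98.9% (77.1 to 127) of DMSO. None of the 9 genes was called there by edgeR, DESeq2 or limma, and 0 of the 9 had an unadjusted p under 0.05. Of all genes edgeR called 0.221%, DESeq2 169 of 24023 and limma 0. The difference between the lines in the response of IGFBP4 was -2.37 on the log2 scale (SE 0.33, adjusted p = 0.00331), 1 call among the 9 where 0.691% of genes were called. This call was lost without any 1 of 4 T47D-TamR libraries, while the value stayed between -2.18 and -2.52. Those fits called no gene or few genes at all, so the loss was not particular to IGFBP4. The adjusted p was 0.184 without control siRNA, 0.136 without its tamoxifen counterpart, 0.0985 without DMSO and 0.135 without that arm's tamoxifen library. Limma gave -2.38 for IGFBP4 with an adjusted p of 0.161, where it called 2 of 24023 genes.

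STC2, a pappalysin inhibitor on the list of pathway genes, also fell with tamoxifen in BT483. It was at 666 CPM with control siRNA in BT483, 471 CPM with NLK siRNA type 1, 315 CPM with type 2 and 135 CPM with tamoxifen, which is 20.3% (19.5 to 21.1) of control (log2 fold change -2.32, SE 0.33, adjusted p = 0.00425). In T47D-TamR it was at 106% (95.2 to 119) of control siRNA and 90.0% (79.3 to 102) of DMSO with tamoxifen, and its difference between the lines was -2.32 (SE 0.39, adjusted p = 0.0224), again lost without any 1 of the same 4 T47D-TamR libraries (adjusted p = 0.175 to 0.33). As for IGFBP4, those fits called no gene or few genes at all. The 2 promoters are shown because IGFBP4 and STC2, genes of the axis, both fell with tamoxifen in BT483. They are from RefSeq on GRCh38.p14, 250 bases before to 50 after the start, 5′ to 3′: IGFBP4 at chr17:40443200-40443499, plus strand, and STC2 at chr5:173328365-173328664, minus strand.
IGFBP4 promoter: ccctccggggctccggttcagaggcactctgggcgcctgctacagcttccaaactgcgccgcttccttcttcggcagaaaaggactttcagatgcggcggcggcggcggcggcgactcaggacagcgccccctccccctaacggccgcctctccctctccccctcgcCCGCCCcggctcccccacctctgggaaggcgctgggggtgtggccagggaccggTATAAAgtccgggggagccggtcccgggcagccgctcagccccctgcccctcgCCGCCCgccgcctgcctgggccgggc
STC2 promoter: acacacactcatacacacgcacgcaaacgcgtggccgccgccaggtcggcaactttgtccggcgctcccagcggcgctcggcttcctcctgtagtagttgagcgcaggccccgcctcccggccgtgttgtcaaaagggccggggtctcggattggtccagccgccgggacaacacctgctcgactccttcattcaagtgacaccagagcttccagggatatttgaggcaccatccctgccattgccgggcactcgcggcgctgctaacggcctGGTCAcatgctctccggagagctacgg
Capitals mark matches on either strand. In IGFBP4 these are 2 GC boxes (GGGCGG) and a TATA box (TATAAA, in 11.5% of promoters), with no estrogen response half-site (GGTCA, in 37.4%). In STC2 the capitals are 1 half-site, and there is no GC box or TATA box. Neither window has the estrogen response element GGTCANNNTGACC, which contains the half-site and stood in 0.057% of promoters, or the AP-1 site TGANTCA, which stood in 7.71%. These letters describe the windows only.

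The other members were not called in BT483 with tamoxifen. IGF1R was at 64.8% (62.5 to 67.2) of control (log2 fold change -0.65, SE 0.23, adjusted p = 0.315) and IRS1 at 56.7% (53.2 to 60.4; -0.84, SE 0.27, adjusted p = 0.229). IGFBP3 was at 188% (163 to 217; 0.89, SE 0.38, adjusted p = 0.511). INSR was at 135%, IRS2 at 74.3%, IGFBP2 at 73.7% and IGFBP5 at 99.8% of control. IGF1R, IRS1, IGFBP3 and IGFBP4 were the 4 members with an unadjusted p under 0.05. In T47D-TamR, IGF1R was at 117% of control siRNA and 109% of DMSO with tamoxifen, and IRS1 at 116% and 102%. The differences between the lines were -0.85 (SE 0.28, adjusted p = 0.309) for IGF1R and -0.99 (SE 0.35, adjusted p = 0.36) for IRS1 and did not pass. Over the 3 tamoxifen pairs in 1 fit 0 of 9 genes were called, where 0.0416% of genes were, and DESeq2 and limma called 0 as well. No member had an unadjusted p under 0.05 in it.

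Among the 54 pathway genes, 48 were tested with tamoxifen in BT483 and 2 were called, where 1.49% of 24023 genes were. These 2 were STC2, and SOCS2, which rose from 108 to 300 CPM (log2 fold change 1.46, SE 0.31, adjusted p = 0.0396). The SOCS2 call was lost without any 1 of 4 T47D-TamR libraries (the 2 tamoxifen libraries and their 2 controls, adjusted p = 0.162 to 0.17) and with limma (0.153). In T47D-TamR 1 of 48 was called, where 0.221% of 24023 genes were. RICTOR, the mTORC2 subunit, was lower with tamoxifen (-1.05, SE 0.18, adjusted p = 0.0369). It was also below both controls without tamoxifen, at 13.3 CPM with NLK siRNA type 1, 15.1 CPM with type 2 and 10.6 CPM with VX-702. In the siRNA arm pair it was at 23.6 CPM with control siRNA and 10.5 CPM with tamoxifen. In the drug arm pair it was at 20.9 CPM with DMSO and 10.5 CPM with tamoxifen. The RICTOR call was lost without any 1 of those 4 libraries and with limma (adjusted p = 0.645). None of these fits called any gene.

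**Figure D4:**
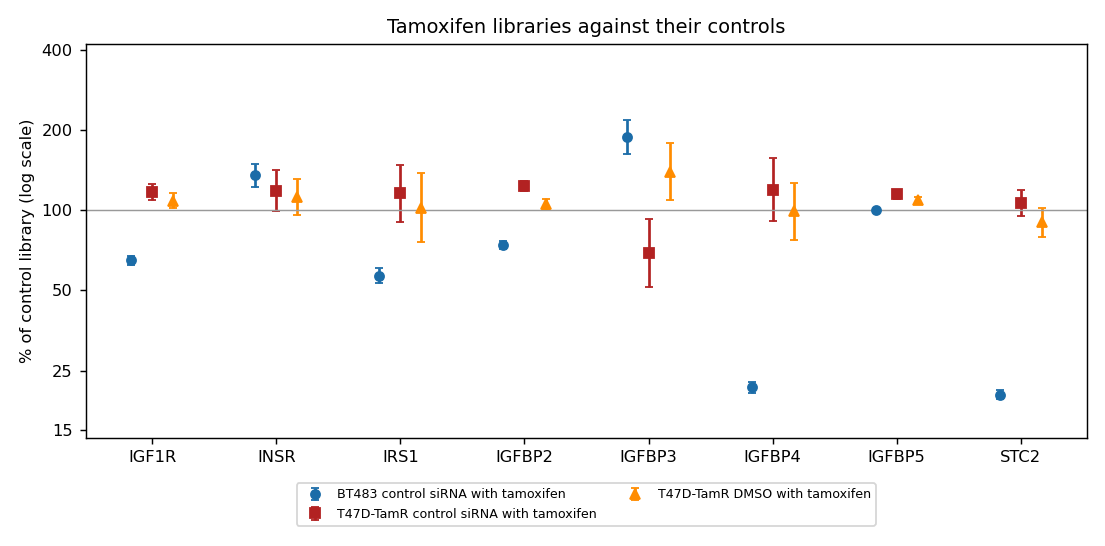
Level with tamoxifen as percent of the matching control library (log axis) for 7 members and STC2, in 1 pair of BT483 and 2 pairs of T47D-TamR, with exact 95% counting intervals. IGFBP4 and STC2 in BT483 lie at 21.6% and 20.3%, and the T47D-TamR points of both genes between 90.0% and 119%.

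Lowering NLK changed none of the 9 genes past the threshold. With both siRNAs and both lines in 1 fit 0 of 9 were called, where 0.00416% of genes were, and log2 fold changes ran from -0.21 (IGFBP4) to 1.39 (IGFBP6, at very low counts). In BT483 0 of 9 were called (0.00416% of genes), in T47D-TamR 0 (0.00416%), and in the difference between the lines 0 (0%). DESeq2 and limma called 0 in these 4 tests too. The number with an unadjusted p under 0.05 in edgeR was 0 in the joint fit, 1 in BT483, 2 in T47D-TamR and 2 in the difference.

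IRS1 was the member farthest from control in T47D-TamR among those with more than a few reads: 5.01 CPM with control siRNA, 7.71 CPM with type 1 (154%, 122 to 194) and 10.3 CPM with type 2 (206%, 166 to 258). Both siRNA libraries were above control siRNA and above the one with tamoxifen (5.79 CPM), but the log2 fold change of 0.85 (SE 0.24) had an adjusted p of 0.768. In BT483 IRS1 was at 84.3% and 112% of control siRNA, and the difference between the lines was -0.89 (SE 0.33, adjusted p = 1). IGFBP5 in T47D-TamR was at 62.5% (59.7 to 65.4) and 76.5% (73.3 to 79.9) of control siRNA (log2 fold change -0.50, SE 0.24, adjusted p = 0.859), and in BT483 at 139% with type 1 and 86.9% with type 2. The 2 siRNAs thus lay on opposite sides of control for IGFBP5 in BT483.

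The knockdown and tamoxifen comparisons of a line share its control siRNA library. IGFBP4 in BT483 was at 74.5% (71.9 to 77.2) with type 1 and 65.2% (63.1 to 67.3) with type 2 (log2 fold change -0.53, SE 0.22, adjusted p = 1). Both were below control siRNA, and in T47D-TamR the values were 117% and 74.0%. INSR was at 111% and 155% in BT483 and 86.6% and 98.3% in T47D-TamR. IGF1R was at 99.7% and 102% in BT483 and 106% and 140% in T47D-TamR. IGFBP2 was at 85.9% and 89.3% in BT483 and 149% and 103% in T47D-TamR, and IGFBP3 at 110% and 151% and at 61.4% and 88.0%. Type 2 against type 1 over both lines called 0 of 9 genes by edgeR, DESeq2 and limma, and 0 of the 9 had an unadjusted p under 0.05. Of all genes edgeR called 0.47%, DESeq2 354 of 24023 and limma 0. Of the 48 pathway genes tested, 0 were called in any of these knockdown and siRNA comparisons. With no filter on low counts edgeR called PIK3CB, a PI3K catalytic subunit, lower in the joint fit (-0.58, adjusted p = 0.0362) and STC2 lower in BT483 (-0.76, adjusted p = 0.0178). Those unfiltered fits called 249 and 163 of 41317 genes. PIK3CB and STC2 were named here after their values were seen.

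**Figure D5:**
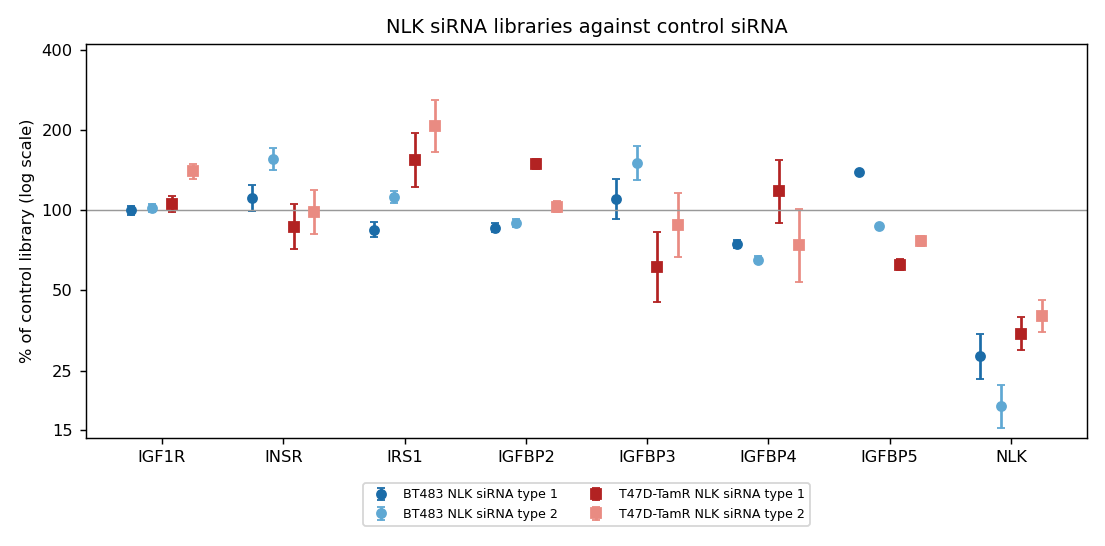
Level with each NLK siRNA as percent of control siRNA (log axis) for 7 members and NLK itself, with exact 95% counting intervals. NLK lies at 18.4 to 40.1% in the 4 libraries, and the members at 61.4% (IGFBP3 in T47D-TamR, type 1) to 206% (IRS1 in T47D-TamR, type 2).

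The 2 arms of T47D-TamR differ in siRNA, and the drug arm's time of treatment is not given, so transfection and time cannot be told apart. Between these arms, IGFBP5 had the lowest p of the members. It was at 200, 125, 153 and 229 CPM with control siRNA, type 1, type 2 and control siRNA with tamoxifen, and at 414, 392 and 452 CPM with DMSO, VX-702 and DMSO with tamoxifen. The arms did not overlap for IGFBP5, and how many of all genes lay apart in this way was not counted. Control siRNA was at 48.3% (46.7 to 50.0) of DMSO. With tamoxifen in both, the siRNA arm was at 50.7% (49.2 to 52.4) of the drug arm. The log2 fold change was -1.20 (SE 0.24) with an edgeR adjusted p of 0.264. edgeR called 0 of 9 genes, where 0.0333% of genes were called, while 4 had an unadjusted p under 0.05. DESeq2 called IGFBP5 (adjusted p = 0.00458) among 45 of 24023 genes, and limma called 0 of all genes. Without the BT483 NLK siRNA type 1 library edgeR called IGFBP5 (adjusted p = 0.0454) among 6 of 23742 genes. IRS1 was higher in the siRNA arm by 0.69 (SE 0.27, adjusted p = 0.921) and INSR lower by -0.49 (SE 0.19, adjusted p = 0.913), and neither was called. IRS2 had the largest fitted value, 4.64 (SE 1.88, adjusted p = 0.944), which rests on the 0 to 8 reads given above. The 10 fibroblast markers summed to 70.1 to 97.2 CPM in the siRNA arm and 107 to 121 CPM in the drug arm, with 0 to 2 and 1 to 4 of them at 0. FN1 and COL1A1 made up most of these sums. Of the 7 tested 1 was called, FN1 (fibronectin), which was lower in the siRNA arm (-1.46, SE 0.21, edgeR adjusted p = 0.0392). Others lay the other way in 3 of the 4 siRNA libraries, without a call: COL1A2 was at 2.22, 6.51, 4.08 and 0.23 CPM in the siRNA arm and at most 0.36 CPM in the drug arm, POSTN at 1.94, 5.19, 3.61 and 0 CPM against at most 0.40 CPM, and VIM at 1.62, 2.28, 2.25 and 0.19 CPM against at most 0.12 CPM. The library with tamoxifen was the low one for all 3 genes. The 6 basal markers summed to 94.4 to 145 CPM and 57.2 to 106 CPM, with none at 0 in T47D-TamR and 0 called. The part of these markers in the IGFBP5 difference was not tested.

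VX-702 against DMSO is 1 library against 1, with no test. The 6 members with an average of at least 5 CPM lay between a log2 difference of -0.08 (IGFBP5) and 0.61 (IGFBP4), beside a median of 0.06 over all such genes. IGF1R was at 66.8 CPM with DMSO and 83.4 CPM with VX-702, IGFBP2 at 180 and 254 CPM, IGFBP3 at 4.69 and 6.66 CPM, and IGFBP4 at 5.21 and 8.0 CPM. These were above DMSO, INSR was at 12.3 and 12.6 CPM, and IGFBP5 at 414 and 392 CPM. None of the 6 reached a log2 difference of 1 either way, and 0.315% of 11737 genes did. Below that level, IRS1 had 89 and 109 reads, IGFBP6 6 and 21 reads, and IRS2 0 in both.

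Over the 11 libraries, after subtracting the mean of each line and arm, IGF1R and IRS1 varied most alike among the members (Pearson r = 0.85), followed by IRS1 and IRS2 (0.79). The value for IRS2 rests in part on T47D-TamR libraries with 0 to 8 reads of it, near the floor. The genes most like each member among 10620 candidates were NRARP (0.99) and WBP11 (0.99) for IGF1R, CCL28 (0.98) and TESK2 (0.97) for INSR, UBE2R2 (0.98) and YRDC (0.98) for IRS1, METTL26 (0.96) and EEF1B2 (0.96) for IGFBP2, HOXB3 (0.92) and RIMKLB (0.92) for IGFBP3, GINS2 (0.97) and CDCA7L (0.97) for IGFBP4, and MTRF1 (0.92) and IQCC (0.92) for IGFBP5. These values describe 11 libraries that were scaled together, and carry no test.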

How the data were processed

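RNA of 11 libraries was measured by stranded poly(A) RNA-seq with paired reads, per the labels' protocols. The submitters' processing notes name GRCh38 as the genome. Which aligner, annotation and counting settings were used is not given in the sources used here. For every library the authors deposited unnormalized counts of 59087 gene symbols, and log2(TPM + 1) values. Groups came from the sample titles and labels, with 1 library each. The members and lists were chosen with earlier results of these data known.

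Tests used edgeR 4.0.16 in R 4.3.3 on the counts: TMM scaling, filterByExpr and robust quasi-likelihood F tests, 2-sided, adjusted over all genes tested (24023, or 21990 between lines), threshold 0.05. Fits were additive over 11 libraries with line and arm as the block, per line, with an siRNA term, and over the 8 siRNA libraries blocked by condition. The SE is the log2 fold change divided by the root of F. VX-702 was compared with DMSO by log2 differences of TMM-scaled CPM (prior count 2), over genes averaging at least 5 CPM. Percent of control has exact 95% binomial intervals, and the floor is 3 counts, both for counting error only. Alternatives were RLE scaling, DESeq2 1.42.0, limma 3.58.1 on the deposited log2 values, other filters, no block, and each library left out. The scripts of some comparisons were run on simulated counts with the same spread for all genes, a check of the code only.

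Named genes were the 9 members, the ligands, pathway genes called (the 6 largest where over 12 were called), and 2 genes most like each member; PAPPA was added after its values were seen. Gene places came from GENCODE 29 and promoters from RefSeq (GRCh38.p14), which had an entry for all 9 members. Exons of IRS2 and IGFBP5 overlap antisense genes, which had 0 reads.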

Additional observations from a re-analysis of the deposited data

Results flagged for a closer look

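2 results were singled out because the effect of tamoxifen differed between the lines by a test of the difference itself. For IGFBP4 the difference, BT483 minus T47D-TamR, was -2.37 on the log2 scale (edgeR adjusted p = 0.00331). IGFBP4 was lower in the 1 BT483 pair, and above and below its control in the 2 T47D-TamR pairs. For STC2 it was -2.32 (edgeR adjusted p = 0.0224), lower in the 1 BT483 pair and likewise on either side of control in the 2 T47D-TamR pairs. Depth was high for both genes in BT483 (2456 or more reads of IGFBP4 and 3592 or more of STC2 per library), while T47D-TamR had 71 to 191 reads of IGFBP4.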

How the results depend on the processing

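The 8 calls between the lines held under the alternatives run, except that IRS2 was not tested where each library had to have 10 counts or more (7 of 7 called). There 9 members were called in place of 8, IGFBP6 added, with no filter on low counts, and 8 to 9 with 1 library left out. No member changed sign while called: of 1477 member values under 17 alternatives 73 had the opposite sign, and 0 of these were called in either fit. In the other comparisons the number of members called changed as follows. With limma on the deposited log2 TPM values it was 0 in place of 1 for tamoxifen in BT483 and 0 in place of 1 for the difference between lines. Limma called 20 and 2 of 24023 genes there. With no filter on low counts the members called were 1 in place of 0 both for the 3 tamoxifen pairs and for the T47D-TamR arms. Of all genes 513 and 206 of 41317 were called there. With DESeq2 1 member was called for the arms, among 45 of 24023 genes. Leaving out single libraries gave 0 to 1 for the difference between lines and 0 to 1 for the arms. The STC2 calls were lost with limma (adjusted p = 0.0606 in BT483 and 0.192 for the difference), and where each library had to have 10 counts or more that difference had an adjusted p of 0.0535, SOCS2 in BT483 0.0712 and RICTOR in T47D-TamR 0.0849. For VX-702, INSR was at 0.04 by TMM, -0.05 by total counts and -0.07 from the deposited log2 TPM values. Tamoxifen in BT483 could not be fitted per line without the BT483 control siRNA or the BT483 tamoxifen library, so this call has no check of that kind. The groups share no replicate numbers, so the only blocks used were line and arm, or condition. Depth limits IRS2 in T47D-TamR and IGFBP6 in BT483, whose values lie near the floor.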
